A study of Homo sapiens with 12 samples.

Results

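Steroid hormone receptors and the genes they control were followed across 2 ovarian carcinoma cell lines and an immortalized ovarian epithelial cell line. The 9 genes were taken by symbol from the 61533 genes of the series: the estrogen receptors ESR1, ESR2 and GPER1, the progesterone receptor PGR, the glucocorticoid receptor NR3C1, the mineralocorticoid receptor NR3C2, the estrogen targets GREB1 and TFF1, and FOXA1, a pioneer factor that opens chromatin for steroid receptors. Total RNA of PEO-4 cells, SKOV-3 cells and T1074 cells was sequenced after ribosomal RNA depletion, with 4 libraries per line and 12 in all. PEO-4 is labelled an ovarian cystadenocarcinoma line, and the study gives it high-grade serous histology. SKOV-3 is labelled an ovarian serous cystadenocarcinoma line, whereas the study's text calls it clear cell. T1074 is labelled as ovarian epithelial cells and was immortalized with SV40. The genotype label is WT for every line, and no hormone or inhibitor is listed for any of them. Each line was grown in its own medium, so medium and line cannot be told apart. Every medium held fetal bovine serum, and the study's methods do not say whether hormones were removed from it. Each line stands for 1 donor, and no source used here states that the 4 libraries came from separate cultures, so each p-value covers the spread among these libraries and nothing wider.

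Nuclear steroid receptors are transcription factors that bind a hormone that has crossed the cell membrane, pair up and attach to short DNA elements near their target genes. ESR1 and ESR2 share the estrogen response element, PGR is itself a classical estrogen target, and NR3C1 and NR3C2 bind a common hormone response element and both answer to cortisol. GPER1 is a membrane receptor that signals through G proteins. GREB1 and TFF1 are widely used readouts of estrogen action in breast cancer cells.

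Expected counts, the authors' RSEM estimates of the fragments of each gene, summed to 19780836 to 55739060 per library, with the lowest total in T1074 replicate 1. For comparisons between lines, each level is the CPM, the count per library size after TMM scaling. In a bulk library, fewer cells of a type and less RNA per cell cannot be told apart. By the median difference over genes, PEO-4 replicates 1 and 4 lay close to each other and apart from replicates 2 and 3. The median absolute log2 difference over all genes was 0.0884 between 1 and 4, 0.175 between 2 and 3, and 0.205 to 0.235 in the other PEO-4 pairs. A chi-squared statistic of the counts, per degree of freedom, ordered the PEO-4 pairs otherwise. It was 90.9 between 1 and 4, 34.95 between 2 and 3 and 43.7 between 2 and 4. All pairs within lines differed by more than sampling noise, so none was counted as 1 library. No source used here says what PEO-4 replicates 1 and 4 share. Of the epithelial markers, EPCAM was 0.0497 to 0.137 CPM and CDH1 0.274 to 0.452 CPM in T1074 cells, whereas KRT8 was 358 to 1036 CPM, so the epithelial label of T1074 was borne out by some of its markers and not by others. The other marker lists were mixed as well. Of 5 Muellerian or carcinoma markers, 4 were higher and 1 lower (SOX17) in PEO-4 than in T1074 cells, and 3 were higher and 1 lower (WT1) in SKOV-3 than in T1074 cells. PAX8 was 96.0 to 117 CPM in PEO-4 cells and 79.7 to 105.5 CPM in SKOV-3 cells, against at most 0.183 CPM in T1074 cells. Of 7 stromal markers, 1 was higher (THY1) and 6 lower in PEO-4 than in T1074 cells, while 3 were higher (VIM, COL1A2 and LUM) and 4 lower (COL1A1, DCN, PDGFRB and THY1) in SKOV-3 than in T1074 cells. The granulosa markers FOXL2, AMH and INHA were lower than in T1074 cells in both carcinoma lines, and FSHR was at 0 in every library. The part of these markers in the receptor results was not tested.

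A perfect estrogen response element lay near the canonical start of 1 of the 9 genes, GREB1. The palindrome, GGTCA and TGACC with any 3 bases between them, which reads the same on both strands, was searched on hg38 within 25 kb on each side of the first base of the canonical transcript. It lay near 942 of 20033 protein-coding genes (4.7%), with 3 copies upstream of GREB1-204, whose first base is 11534045 on the plus strand of chromosome 2. The sites are shown because GREB1 alone of the 9 held the element in this window. Capitals mark the palindrome, with 8 flanking bases on each side.
GREB1 site at -21129 bp (chr2:11512902-11512930, plus strand): gataatcaGGTCAAAATGACCttctttca
GREB1 site at -9439 bp (chr2:11524592-11524620, plus strand): tctcaaaaGGTCATCATGACCttattgtc
GREB1 site at -1505 bp (chr2:11532526-11532554, plus strand): ggcaactgGGTCATTCTGACCtagaagca
GREB1-201, which was given 77.2 to 86.1% of GREB1 counts in PEO-4 cells, starts further downstream at 11556353, and from there the sites lie at -43437, -31747 and -23813 bp, so 1 of the 3 is within 25 kb. A match describes the letters of the genome and not a bound site, and no binding was measured. No match near the other 8 genes says only that these letters were not in that window.

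Between genes, levels were compared as TPM, a transcript abundance that the authors scaled by length and library. In PEO-4 cells NR3C1 (15.2 to 19.4 TPM), ESR1 (12 to 15.9 TPM) and GREB1 (8.50 to 21.1 TPM) led and overlapped. PGR followed at 0.370 to 2.68 TPM and FOXA1 at 0.270 to 0.350 TPM, while GPER1, NR3C2, ESR2 and TFF1 stayed at or below 0.140 TPM. In SKOV-3 cells ESR1 (7.39 to 12 TPM) and NR3C1 (7.35 to 10.6 TPM) overlapped at the top. NR3C2 came next at 0.780 to 1.10 TPM, above GREB1 at 0.440 to 0.740 TPM, which overlapped FOXA1 at 0.320 to 0.470 TPM. PGR, ESR2, GPER1 and TFF1 were the lowest in SKOV-3 cells and overlapped. In T1074 cells NR3C1 stood alone at 12.3 to 15.4 TPM, and NR3C2 (1.03 to 1.91 TPM) overlapped FOXA1 (0.39 to 1.20 TPM). ESR1 was the seventh of the 9 genes in T1074 cells, at 0.0200 to 0.140 TPM.

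**Figure D1:**
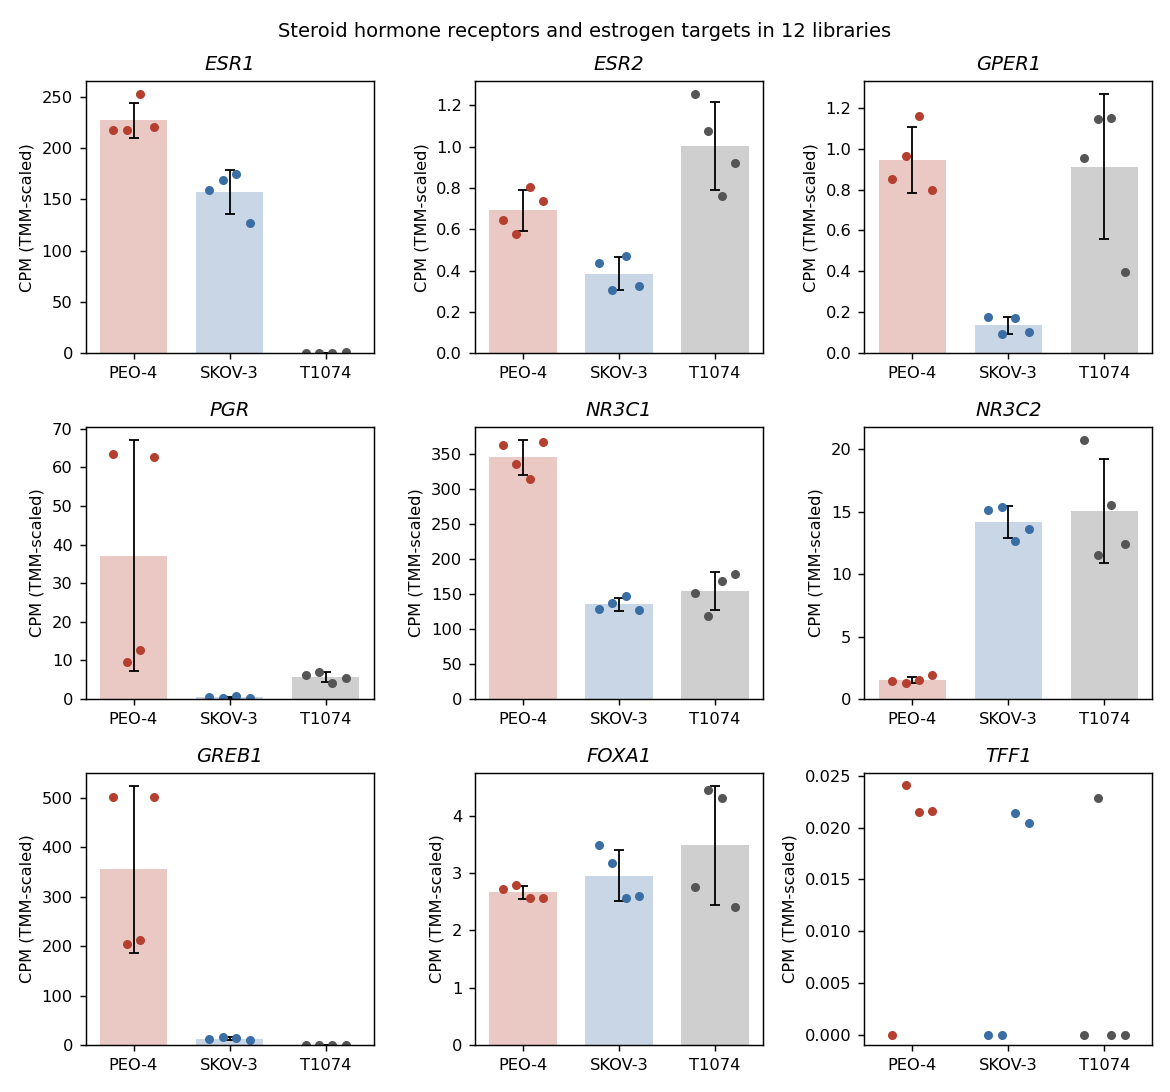
Level of each of the 9 genes in CPM (y axis, linear, its own scale per panel) in PEO-4, SKOV-3 and T1074 cells. Points are libraries, bars the mean and error bars the SD (n = 4), with points alone for TFF1, which had 0 or 1 count per library. ESR1 was below 1 CPM in every T1074 library and at 127 to 253 CPM in the 8 carcinoma libraries, and PGR and GREB1 split the PEO-4 libraries into a higher and a lower pair.

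ESR1 (ENSG00000091831.25, chr6:151656691-152129619, plus strand), which encodes estrogen receptor alpha, was abundant in both carcinoma lines. Its level was 217, 217, 253 and 220.1 CPM in PEO-4 cells and 159, 169, 174 and 127 CPM in SKOV-3 cells, against 0.301, 0.412, 0.661 and 0.796 CPM in T1074 cells, where 6 to 32 counts per library lay behind it. No carcinoma library came near a T1074 library, and all PEO-4 libraries lay above all SKOV-3 libraries. ESR1 was higher than in T1074 cells by 8.64 on the log2 scale in PEO-4 cells (SE 0.23, edgeR quasi-likelihood test, adjusted p = 9.64e-13) and by 8.11 in SKOV-3 cells (SE 0.22, adjusted p = 1.72e-12). PEO-4 cells exceeded SKOV-3 cells by 0.53 (SE 0.15, adjusted p = 0.00606), or 1.44-fold. SYNE1, which overlaps ESR1 on the opposite strand, averaged 18.6 CPM in PEO-4 cells and 83.0 CPM in SKOV-3 cells, against 71.5 CPM in T1074 cells. The strand setting of the counting is not given in the sources used here.

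ESR2 (ENSG00000140009.19, chr14:64084232-64338112, minus strand), estrogen receptor beta, was low in every line, with 15.99 to 47 counts per library. It measured 0.644, 0.579, 0.805 and 0.735 CPM in PEO-4 cells and 0.434, 0.307, 0.471 and 0.328 CPM in SKOV-3 cells, against 1.25, 1.08, 0.759 and 0.920 CPM in T1074 cells. PEO-4 and T1074 libraries overlapped, and every SKOV-3 library lay below all others in CPM, while in TPM, given to 2 decimals, PEO-4 and SKOV-3 libraries overlapped. ESR2 was lower in SKOV-3 than in T1074 cells (log2 fold change -1.36, SE 0.25, adjusted p = 0.000263) and higher in PEO-4 than in SKOV-3 cells (0.84, SE 0.26, adjusted p = 0.00805). PEO-4 against T1074 cells gave -0.52 (95% interval -1.0 to -0.04, adjusted p = 0.0693). SYNE2, on the other strand of the same locus, averaged 83.5 CPM in PEO-4 cells and 143 CPM in SKOV-3 cells, against 187 CPM in T1074 cells, and its part in ESR2 counts was not tested.

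GPER1 (ENSG00000164850.16, chr7:1082208-1093815, plus strand), the membrane estrogen receptor, was scarce in SKOV-3 cells. PEO-4 libraries had 0.849, 0.965, 1.16 and 0.800 CPM and SKOV-3 libraries 0.175, 0.0961, 0.171 and 0.102 CPM (5 to 9 counts), against 0.953, 1.15, 1.15 and 0.398 CPM in T1074 libraries. Every SKOV-3 library lay below all others, and T1074 replicate 4 lay below the PEO-4 range. The log2 fold change was -2.72 in SKOV-3 against T1074 cells (SE 0.38, adjusted p = 1.69e-05) and 2.77 in PEO-4 against SKOV-3 cells (SE 0.37, adjusted p = 9.82e-06). PEO-4 against T1074 cells gave 0.05 (95% interval -0.57 to 0.67, adjusted p = 0.891). C7orf50, which overlaps GPER1 on the opposite strand, averaged 16.8 CPM in PEO-4 cells and 29.5 CPM in SKOV-3 cells, against 53.4 CPM in T1074 cells.

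PGR (ENSG00000082175.16, chr11:101029624-101129813, minus strand), the progesterone receptor, was highest in PEO-4 and lowest in SKOV-3 cells. It was 63.4, 9.65, 12.8 and 62.8 CPM in PEO-4 cells and 0.546, 0.403, 0.728 and 0.410 CPM in SKOV-3 cells, against 6.32, 7.03, 4.12 and 5.45 CPM in T1074 cells. PEO-4 replicates 1 and 4 lay above replicates 2 and 3, with 6.57-fold between the highest and the lowest, and the lowest lay 1.37-fold above the highest T1074 library. In TPM the lines overlapped, at 0.370 to 2.68 TPM in PEO-4 cells, against 0.190 to 0.470 TPM in T1074 cells. PGR was higher in PEO-4 than in T1074 cells by 2.7 on the log2 scale (SE 0.52, adjusted p = 0.000275). That size rested on 1 pair of libraries: it was 0.99 (adjusted p = 0.00454) without PEO-4 replicates 1 and 4 and 3.58 (adjusted p = 3.88e-08) without replicates 2 and 3. SKOV-3 cells, where ESR1 was abundant, had less PGR than T1074 cells, where ESR1 was near 0 (log2 fold change -3.45, SE 0.61, adjusted p = 0.00016). PEO-4 exceeded SKOV-3 cells by 6.15 (SE 0.64, adjusted p = 6.77e-07), by 4.42 without PEO-4 replicates 1 and 4 and by 6.97 without replicates 2 and 3.

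GREB1 (ENSG00000196208.14, chr2:11482341-11642788, plus strand), a cofactor of estrogen receptor alpha and one of its targets, was most abundant in PEO-4 cells. PEO-4 libraries held 502, 204, 213 and 502 CPM and SKOV-3 libraries 11.5, 15.5, 14.7 and 9.61 CPM, against 0.401, 0.252, 0.269 and 0.0746 CPM (3 to 11 counts) in T1074 libraries. The 3 lines did not overlap, and PEO-4 replicates 1 and 4 were again the higher pair. GREB1 exceeded T1074 cells by 10.57 on the log2 scale in PEO-4 cells (SE 0.49, adjusted p = 1.54e-10) and by 5.78 in SKOV-3 cells (SE 0.45, adjusted p = 4.95e-08). PEO-4 exceeded SKOV-3 cells by 4.79 (SE 0.34, adjusted p = 1.46e-08), or 27.7-fold, whereas ESR1 differed 1.44-fold between these lines. Without PEO-4 replicates 1 and 4 the log2 fold changes of GREB1 in PEO-4 cells were 9.82 against T1074 and 4.02 against SKOV-3 cells, and without replicates 2 and 3 they were 11.19 and 5.34.

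TFF1 (ENSG00000160182.3, chr21:42362282-42366535, minus strand), a secreted trefoil peptide, had 0, 1, 1 and 1 counts in PEO-4 cells and 0, 0, 1 and 1 counts in SKOV-3 cells, against 0, 1, 0 and 0 counts in T1074 cells. All 12 libraries lay under a floor of 3 counts, so TFF1 was not detectable at this depth in any line and no fold is given. FOXA1 (ENSG00000129514.8, chr14:37589552-37596059, minus strand), the pioneer factor, had 2.72, 2.80, 2.56 and 2.57 CPM in PEO-4 cells and 3.49, 3.17, 2.57 and 2.60 CPM in SKOV-3 cells, against 2.76, 4.44, 4.31 and 2.41 CPM in T1074 cells. All 3 lines overlapped in CPM, whereas in TPM the PEO-4 libraries (0.270 to 0.350 TPM) lay below the T1074 libraries (0.39 to 1.20 TPM). The log2 fold changes of FOXA1 were -0.40 in PEO-4 against T1074 cells (95% interval -0.81 to 0.02, adjusted p = 0.107), -0.24 in SKOV-3 against T1074 cells (-0.66 to 0.17, adjusted p = 0.32) and -0.15 in PEO-4 against SKOV-3 cells (-0.57 to 0.26, adjusted p = 0.526).

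NR3C1 (ENSG00000113580.15, chr5:143277931-143435512, minus strand), the glucocorticoid receptor, was expressed in every line and highest in PEO-4 cells. It measured 363, 336, 315 and 368 CPM in PEO-4 cells and 129, 137, 148 and 128 CPM in SKOV-3 cells, against 152, 118, 169 and 178 CPM in T1074 cells. The PEO-4 libraries stood above all others, and SKOV-3 and T1074 libraries overlapped. In PEO-4 cells NR3C1 exceeded T1074 cells 2.24-fold (log2 fold change 1.16, SE 0.13, adjusted p = 1.06e-06) and SKOV-3 cells 2.55-fold (1.35, SE 0.13, adjusted p = 2.28e-07). SKOV-3 against T1074 cells gave -0.19 (95% interval -0.43 to 0.05, adjusted p = 0.19). The order depended on the scale, since in TPM, which has no TMM factor, NR3C1 was 15.2 to 19.4 TPM in PEO-4 cells and 7.35 to 10.6 TPM in SKOV-3 cells, against 12.3 to 15.4 TPM in T1074 cells. On that scale PEO-4 and T1074 libraries overlapped, with means of 17.6 and 14.0 TPM, and every SKOV-3 library lay below every T1074 library. With counts rebuilt from TPM, length and library size and refitted with TMM factors in edgeR, the log2 fold changes of NR3C1 were 1.07 in PEO-4 (adjusted p = 2.89e-06) and -0.22 in SKOV-3 cells (adjusted p = 0.131) against T1074 cells.

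NR3C2 (ENSG00000151623.15, chr4:148078762-148444698, minus strand), the mineralocorticoid receptor, went the other way. It was 1.46, 1.28, 1.5 and 1.90 CPM in PEO-4 cells and 15.1, 15.4, 12.7 and 13.6 CPM in SKOV-3 cells, against 20.8, 11.5, 15.6 and 12.4 CPM in T1074 cells. Every PEO-4 library lay below all others, and SKOV-3 libraries lay inside the T1074 range. NR3C2 was 9.72-fold lower in PEO-4 than in T1074 cells (log2 fold change -3.28, SE 0.20, adjusted p = 2.69e-09) and 9.21-fold lower in PEO-4 than in SKOV-3 cells (-3.20, SE 0.20, adjusted p = 3.38e-09). SKOV-3 against T1074 cells gave -0.08 (95% interval -0.42 to 0.27, adjusted p = 0.712).

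**Figure D2:**
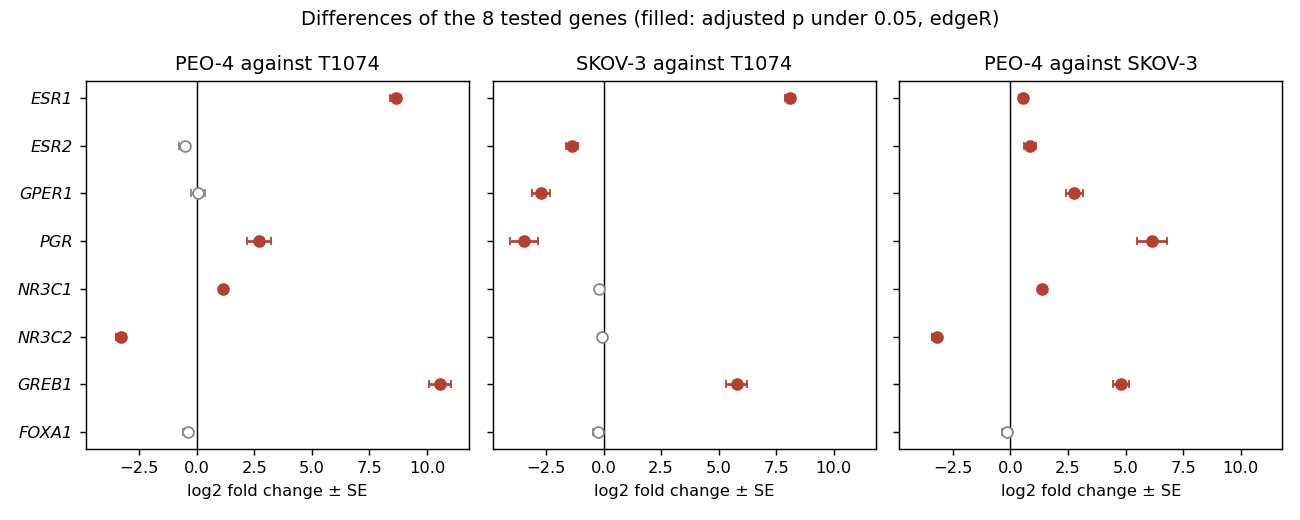
Log2 fold change (x axis) of the 8 tested genes (rows) in the 3 comparisons, each with its SE as the bar; filled points have an adjusted p under 0.05 and open points do not. ESR1 and GREB1 lay above 0 in all 3 panels, NR3C2 was filled and below 0 in both PEO-4 panels, and FOXA1 was open in all 3.

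Of the 9 genes, 8 passed the filter on low counts and TFF1 did not. In PEO-4 against T1074 cells 5 of the 8 passed the test (ESR1, PGR, NR3C1 and GREB1 higher, NR3C2 lower), against 74.1% of all 19898 genes tested. In SKOV-3 against T1074 cells 5 passed (ESR1 and GREB1 higher, ESR2, GPER1 and PGR lower), against 67.8% of all genes. In PEO-4 against SKOV-3 cells 7 passed (all but FOXA1, with NR3C2 alone lower), against 75.2% of all genes. The lines did not overlap in the same 5, 5 and 7 genes, against 66.6%, 60.3% and 75.7% of all genes. Shares of calls near those over all genes say nothing particular about these genes, and the comparisons share libraries. Without PEO-4 replicates 1 and 4, and also without replicates 2 and 3, 5, 5 and 7 genes passed.

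Transcript shares, the percentage of a gene's expected count given to a transcript, were compared for genes with at least 50 counts in every library of both lines. A transcript was kept if its mean share was at least 10% in any line, tested or not. Of 24 exact permutation tests (two-sided, 4 against 4 libraries), 14 reached the smallest p the design allows, 0.0286, which became 0.049 after Benjamini-Hochberg adjustment over the 24. ESR1-207 (0% in PEO-4 and 0.83% in SKOV-3 cells) and GREB1-207 (0.64% and 0%) were among the 14. Both were kept only through T1074 cells, at 3 to 32 counts of the gene per library. The 0.049 depends on how many tests reached the smallest p. Transcripts of 1 gene share its total, so these tests are not independent. With shares of TPM in place of counts 12 tests reached the smallest p, the smallest adjusted p was 0.0571, and 0 of 24 passed. RSEM divides reads that fit several transcripts by estimate, so these shares are uncertain.

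NR3C2 differed in the transcripts it used. NR3C2-202, which starts at the upstream first exon, took 19.0, 24.8, 13.7 and 9.38% of the counts in SKOV-3 cells, against 33.5, 35.8, 34.7 and 45.4% in T1074 cells. NR3C2-203, which starts further downstream, took 67.4, 59.7, 65.3 and 72.9% in SKOV-3 cells, against 33.2, 42.1, 40.3 and 36.3% in T1074 cells. Neither transcript overlapped between these lines, and the mean differences were -20.6 and 28.3 percentage points in SKOV-3 against T1074 cells (adjusted p = 0.049 each, exact permutation test). NR3C2-209, which starts close to NR3C2-203 at 148442520, went the other way. It averaged 6.17% in SKOV-3 and 12.6% in T1074 cells (adjusted p = 0.049, same test). In PEO-4 cells NR3C2-202 had 0 counts in all 4 libraries, which allows a share of up to 3.41 to 6.0% at 49.99 to 88 counts of the gene, and NR3C2-203 took 61.6, 81.6, 99.2 and 100.0%. PEO-4 cells were not tested, since replicate 1 lay just under the minimum count. Both promoters are shown because these transcripts begin at different first bases (148444698 and 148442414). They come from RefSeq on GRCh38.p14, run from 250 bases before to 50 after the start, and carry in capitals the GC box GGGCGG and the CCAAT box on either strand, which 44.95% and 34.61% of all 35116 promoters hold.
NR3C2-202 promoter (chr4:148444649-148444948, minus strand): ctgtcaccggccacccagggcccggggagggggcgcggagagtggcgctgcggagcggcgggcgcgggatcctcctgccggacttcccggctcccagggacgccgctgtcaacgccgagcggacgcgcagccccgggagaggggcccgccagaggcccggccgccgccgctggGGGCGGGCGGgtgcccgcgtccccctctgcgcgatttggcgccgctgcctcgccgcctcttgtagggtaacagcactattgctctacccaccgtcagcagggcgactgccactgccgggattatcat
NR3C2-203 promoter (chr4:148442365-148442664, minus strand): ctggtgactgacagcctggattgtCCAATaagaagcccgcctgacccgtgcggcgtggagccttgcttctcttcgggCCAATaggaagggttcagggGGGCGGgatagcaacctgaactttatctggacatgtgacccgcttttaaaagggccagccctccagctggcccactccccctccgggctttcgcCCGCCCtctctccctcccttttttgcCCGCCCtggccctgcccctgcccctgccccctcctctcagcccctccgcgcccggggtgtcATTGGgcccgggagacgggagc
The NR3C2-202 window held 2 GC box matches, no CCAAT match and 75.0% G and C, and the NR3C2-203 window 3 GC box matches, 3 CCAAT matches and 65.7% G and C. These describe the letters, and no factor was measured at either window.

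ESR1-201 dominated ESR1 in the carcinoma lines, at 89.1, 88.3, 94.3 and 88.2% of its counts in PEO-4 cells, against 91.8, 93.4, 94.8 and 93.6% in SKOV-3 cells. The lines overlapped, with a mean difference of -3.41 percentage points in PEO-4 against SKOV-3 cells (adjusted p = 0.171, exact permutation test). In T1074 cells, where 6 to 32 counts were too few for a test, ESR1-201 took 16.7, 0, 69.3 and 0%. Its promoter is shown, with the same marks, because most ESR1 reads of the carcinoma lines were given to this transcript.
ESR1-201 promoter (chr6:151807432-151807731, plus strand): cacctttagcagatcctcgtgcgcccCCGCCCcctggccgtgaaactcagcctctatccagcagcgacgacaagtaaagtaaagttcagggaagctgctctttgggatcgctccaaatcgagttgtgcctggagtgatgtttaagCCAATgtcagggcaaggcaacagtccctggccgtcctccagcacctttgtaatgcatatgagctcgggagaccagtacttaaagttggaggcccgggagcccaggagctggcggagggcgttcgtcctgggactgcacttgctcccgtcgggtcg
It held 1 GC box match, 1 CCAAT match and no match of the single-site element AGGTCA, which 13.83% of all promoters hold.

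**Figure D3:**
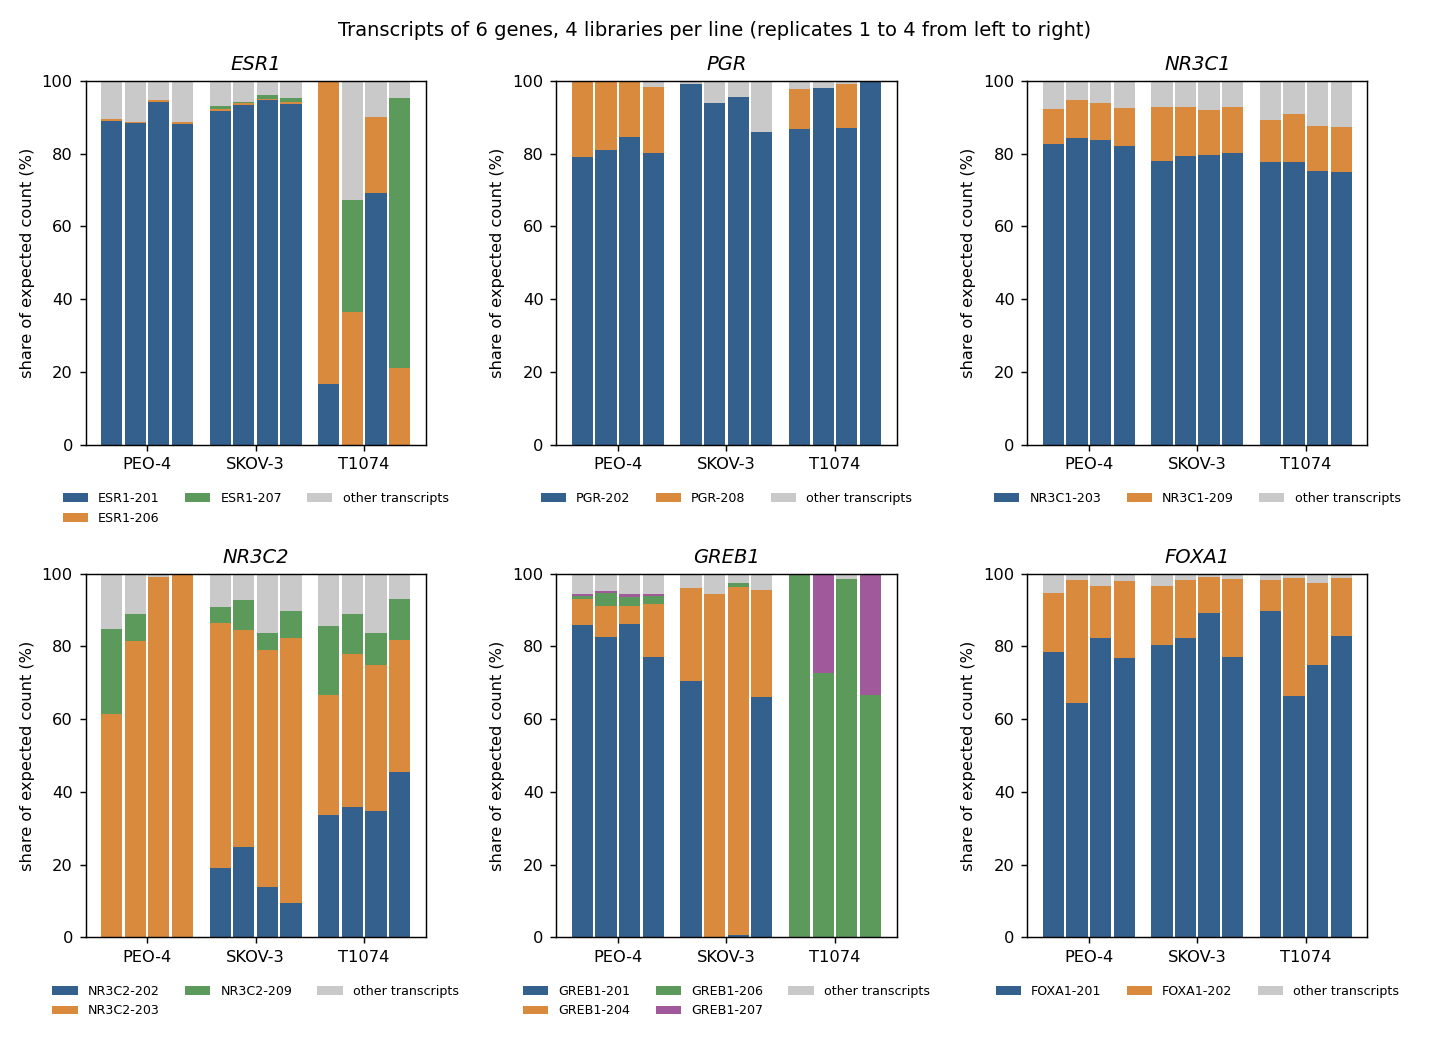
Share of the expected count of a gene (y axis, %) given to its leading transcripts in each of the 12 libraries, for 6 genes; stacked bars are libraries, by line in the order PEO-4, SKOV-3 and T1074. NR3C2-202 had no counts in PEO-4 libraries, took 9.38 to 24.8% in SKOV-3 libraries and 33.5 to 45.4% in T1074 libraries.

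PGR-208, a transcript annotated for nonsense-mediated decay, took 20.7, 19.0, 15.5 and 18.0% of PGR counts in PEO-4 cells, against 11.1, 0, 12 and 0% in T1074 cells (mean difference 12.5 percentage points, adjusted p = 0.049, exact permutation test). Each PEO-4 library lay above each T1074 library. NR3C1-203 took 83.2 ± 0.995% of NR3C1 counts in PEO-4 cells and 79.3 ± 0.957% in SKOV-3 cells, against 76.5 ± 1.59% in T1074 cells (SD, n = 4), with no overlap between any pair of lines. GREB1-201 took 85.9, 82.5, 86.1 and 77.2% of GREB1 counts in PEO-4 cells, against 70.6, 0.0530, 0.569 and 66.2% in SKOV-3 cells. GREB1-204 took 6.98, 8.59, 4.99 and 14.4% in PEO-4 cells, against 25.5, 94.5, 95.9 and 29.4% in SKOV-3 cells. The GREB1 transcript given most counts by RSEM thus differed between libraries of SKOV-3 cells, at 469 to 809 counts of the gene. Whether the transcripts differed or only the division of shared reads was not tested.

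Genes known to be induced by estrogen, listed from textbook knowledge, moved in both directions. Of 25, 24 were tested, and in PEO-4 against T1074 cells 14 were higher and 7 lower, against 36.3% and 37.8% of all genes, with a median log2 fold change of 0.88 beside -0.01 over all genes. In SKOV-3 against T1074 cells 10 were higher and 7 lower, against 33.3% and 34.5% of all genes (median 0.41, or 0.34 without AGR2, which was under the floor in both lines, beside -0.03). In PEO-4 against SKOV-3 cells 9 were higher and 11 lower, against 38.5% and 36.7% of all genes (median -0.47 beside 0.05). CCND1, the G1 cyclin, had 445, 472, 442 and 451 CPM in PEO-4 cells and 403, 419, 363 and 379 CPM in SKOV-3 cells, against 52.4, 16.3, 68.9 and 44.6 CPM in T1074 cells. All carcinoma libraries lay above all T1074 libraries, with log2 fold changes of 3.31 in PEO-4 and 3.10 in SKOV-3 cells (adjusted p = 2.3e-07 and 5.75e-07). XBP1, a factor of the secretory stress response, was 54.4 to 68.1 CPM in PEO-4 cells, against 118 to 175 CPM in T1074 cells (-1.12, adjusted p = 2.61e-06), and was higher in SKOV-3 than in T1074 cells by 0.34 (adjusted p = 0.0319). NRIP1, a corepressor, was lower in PEO-4 than in T1074 cells (-0.92, adjusted p = 0.000188) and was not called in SKOV-3 cells (0.13, adjusted p = 0.511). AGR2, a secreted disulfide isomerase, had 0.264, 0.796, 0.580 and 0.389 CPM in PEO-4 cells and 0 in all T1074 libraries, at least 5.52-fold higher against a floor of 3 counts per library.

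The pair of PEO-4 libraries that was higher in PGR and GREB1 was higher in part of this list. PEO-4 replicates 1 and 4 both lay above replicates 2 and 3 in 11 of the 24 estrogen-induced genes (45.8%) and below both in 6 (25.0%), beside 26.8% and 28.2% of all 19898 genes. PDZK1, a scaffold protein, had 21.2, 10.3, 9.18 and 22.4 CPM in PEO-4 cells, and IGFBP4, which binds insulin-like growth factors, had 211, 146, 96.5 and 208 CPM. PDZK1 and IGFBP4 were chosen after their values were seen, and AGR2 of the same list went the other way. ESR1 did not follow the pair, since replicate 3 had its highest level. Of the 8 tested genes, 3 did (PGR, GREB1 and NR3C1) and 1 went the other way (GPER1). This describes 4 libraries, with no test.

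**Figure D4:**
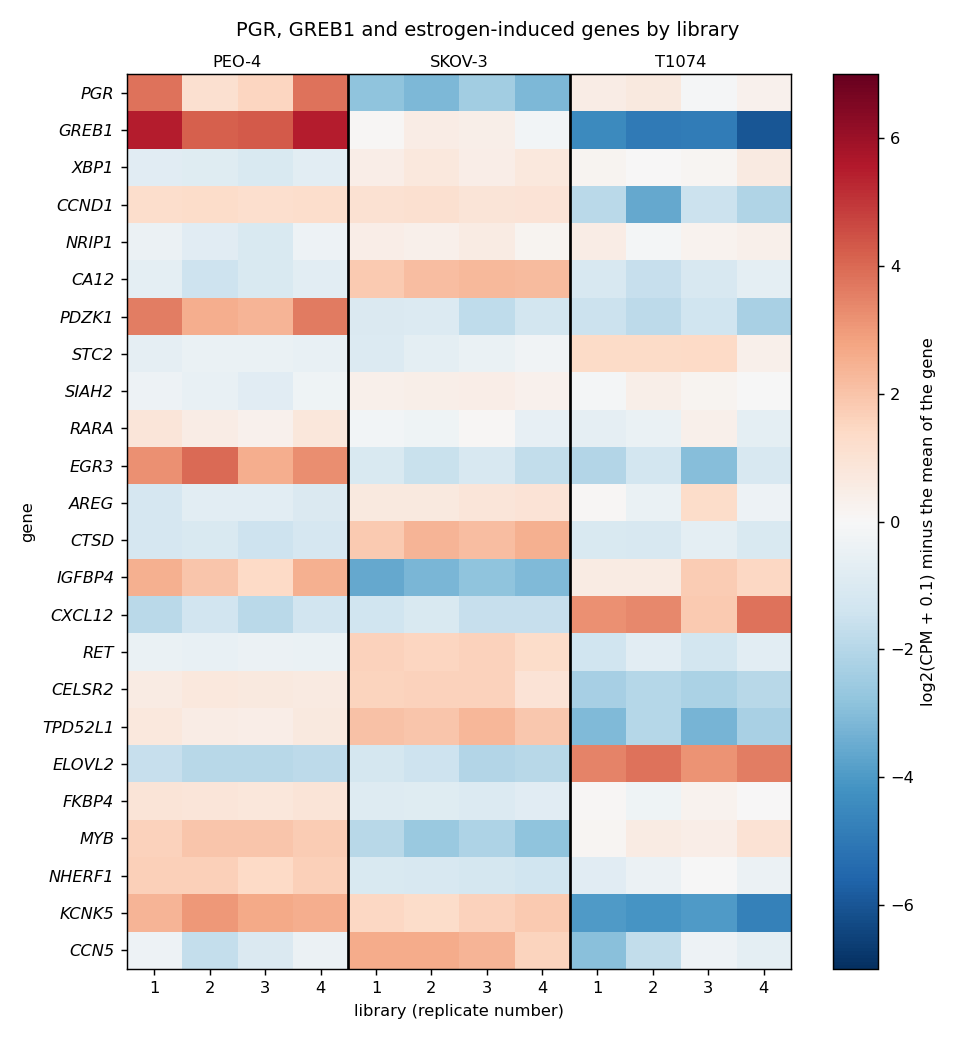
Log2(CPM + 0.1) minus the mean of the gene over the 12 libraries (colour) for PGR, GREB1 and the estrogen-induced genes that reached 1 CPM in any library (24 rows), by library (columns, grouped as PEO-4, SKOV-3 and T1074). GREB1 and PDZK1 were highest in PEO-4, CA12 and CTSD in SKOV-3 and ELOVL2 and CXCL12 in T1074 cells.

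Glucocorticoid-induced genes were called in both directions in each of the 3 comparisons. Of 18, 16 were tested, with 4 higher (ANGPTL4, PDK4, GLUL and TFCP2L1) and 9 lower in PEO-4 than in T1074 cells, against 36.3% and 37.8% of all genes (median log2 fold change -0.94). In SKOV-3 against T1074 cells 7 were higher and 8 lower (median -0.64), against 33.3% and 34.5% of all genes, and in PEO-4 against SKOV-3 cells 6 were higher and 7 lower (median -0.20), against 38.5% and 36.7%. In PEO-4 cells replicates 1 and 4 lay below replicates 2 and 3 in 7 of the 16 (43.8%) and above both in 0, beside 28.2% and 26.8% of all genes. FKBP5, a chaperone that limits the receptor, had 24.9, 28.5, 28.9 and 26.8 CPM in PEO-4 cells and 5.91, 4.36, 3.47 and 4.24 CPM in SKOV-3 cells, against 43.8, 64.8, 56.0 and 50.9 CPM in T1074 cells. The 3 lines did not overlap, with log2 fold changes of -0.98 in PEO-4 and -3.58 in SKOV-3 cells against T1074 cells (adjusted p = 3.88e-05 and 2.86e-10). TSC22D3, the leucine zipper protein GILZ, was lower in PEO-4 than in T1074 cells (-1.62, adjusted p = 1.94e-05) and higher in SKOV-3 than in T1074 cells (2.06, adjusted p = 1.71e-06). SGK1, a kinase induced through both corticoid receptors, had 2.81, 3.57, 2.92 and 2.66 CPM in PEO-4 cells and 4.81, 3.63, 3.58 and 4.94 CPM in SKOV-3 cells, against 80.6, 158, 89.9 and 266 CPM in T1074 cells. No carcinoma library came near a T1074 library (log2 fold changes -5.63 in PEO-4 and -5.13 in SKOV-3 cells, adjusted p = 4.37e-09 and 1.21e-08). PER1, a clock gene, was lower than in T1074 cells by log2 fold changes of -1.80 in PEO-4 and -1.91 in SKOV-3 cells.

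**Figure D5:**
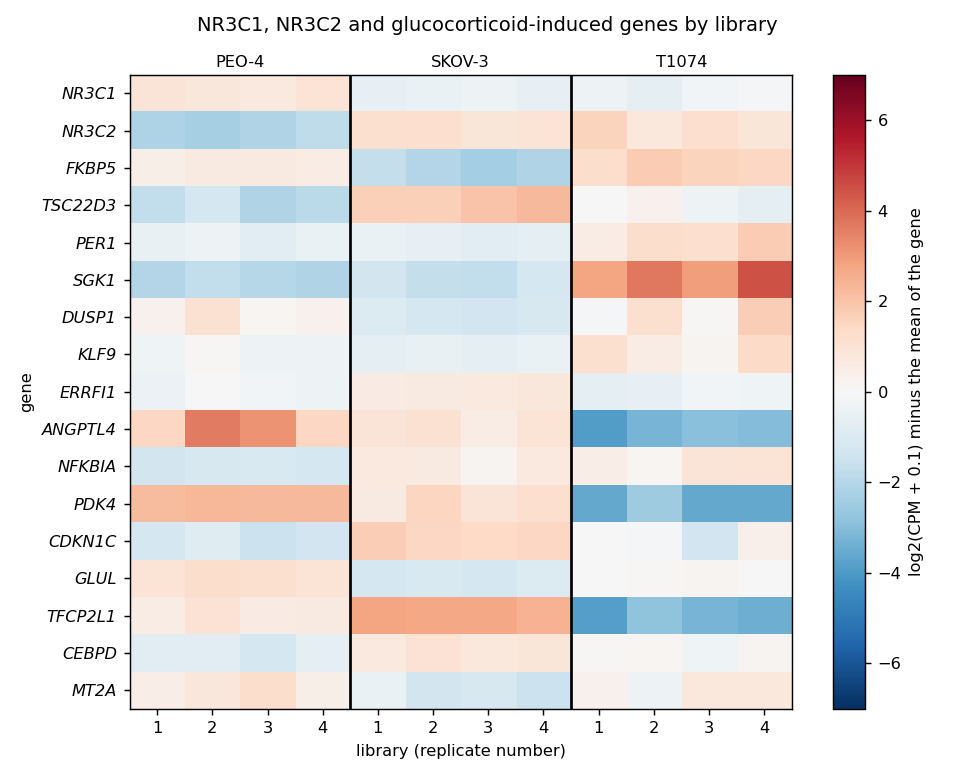
Log2(CPM + 0.1) minus the mean of the gene over the 12 libraries (colour) for NR3C1, NR3C2 and glucocorticoid-induced genes that reached 1 CPM in any library (17 rows), by library (columns, as in the plot of estrogen targets). SGK1 was highest in T1074, TSC22D3 in SKOV-3 and GLUL in PEO-4 cells.

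Among genes of corticoid metabolism and epithelial sodium transport, 5 of 8 were tested. SCNN1B, SCNN1G and HSD11B1 were too low to be tested, at means of 0.198, 0.0960 and 0 CPM in PEO-4 cells. The highest mean of these genes in any line was 0.357 CPM, for HSD11B1 in T1074 cells. SCNN1A, the alpha subunit of the epithelial sodium channel and a mineralocorticoid target, had 263, 243, 244 and 256 CPM in PEO-4 cells and 4.85, 5.97, 5.61 and 4.49 CPM in SKOV-3 cells, against 2.16, 1.48, 1.84 and 2.76 CPM in T1074 cells. It was highest in the line with the least NR3C2, which in CPM also had the most NR3C1. The part of either receptor in SCNN1A was not tested. Its log2 fold changes against T1074 cells were 6.94 in PEO-4 and 1.35 in SKOV-3 cells (adjusted p = 1.16e-12 and 4.05e-06). HSD11B2, which inactivates cortisol, was higher than in T1074 cells by 3.31 in PEO-4 and 2.60 in SKOV-3 cells (adjusted p = 3.8e-06 and 5.73e-05). NEDD4L, a ubiquitin ligase that removes the channel from the membrane, was lower than in T1074 cells in both lines (-2.80 in PEO-4 and -1.23 in SKOV-3 cells, adjusted p = 4.96e-07 and 0.000882). H6PD, which supplies cofactor for cortisone reduction, was higher in PEO-4 than in T1074 cells (0.47, adjusted p = 0.0278).

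Luminal epithelium is the setting in which FOXA1 is best known, and 8 other transcription factors of that setting were tested. Of these, 6 were higher and 1 lower (XBP1) in PEO-4 than in T1074 cells (median log2 fold change 3.5), against 36.3% and 37.8% of all genes, and 6 were higher and 2 lower (XBP1 and FOXA2) in PEO-4 than in SKOV-3 cells (median 3.44), against 38.5% and 36.7%. In SKOV-3 against T1074 cells 4 were higher (XBP1, TFAP2C, ELF3 and FOXA2) and 3 lower, against 33.3% and 34.5% of all genes, with a median of -0.18, which was 0.34 without GRHL2, under the floor in both lines. TFAP2C, a regulator of ESR1 in breast cells, was 45.7, 56.6, 52.2 and 45.0 CPM in PEO-4 cells and 0.195, 0.134, 0.235 and 0.123 CPM in SKOV-3 cells, against 0, 0.0687, 0.0245 and 0.0249 CPM in T1074 cells. SKOV-3 cells had abundant ESR1 with little TFAP2C, and a link between these genes was not tested. GATA3, a luminal regulator, was 1.87, 3.16, 3.25 and 1.97 CPM in PEO-4 cells and at most 0.107 CPM in SKOV-3 cells, against at most 0.174 CPM in T1074 cells. GRHL2, a factor of epithelial junctions, was 124, 129.8, 112 and 123 CPM in PEO-4 cells and 0 in all SKOV-3 libraries, at least 2020-fold higher against the floor.

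Coregulators and chaperones of the receptors were all tested, 18 in number, with 9 higher and 6 lower in PEO-4 against T1074 cells (median log2 fold change 0.33), 7 higher and 5 lower in SKOV-3 against T1074 cells (0.27), and 8 higher and 6 lower in PEO-4 against SKOV-3 cells (0.08). The shares over all genes were 36.3% and 37.8%, 33.3% and 34.5%, and 38.5% and 36.7% in these comparisons. NCOA2, a p160 coactivator, had 228, 203, 189 and 231 CPM in PEO-4 cells and 74.5, 74.1, 76.6 and 73.1 CPM in SKOV-3 cells, against 42.2, 55.0, 44.4 and 52.0 CPM in T1074 cells. The 3 lines did not overlap, and NCOA2 exceeded T1074 cells by 2.13 in PEO-4 and 0.62 in SKOV-3 cells (adjusted p = 4.42e-10 and 0.000116). NCOA3 of the same family did so by 0.92 and 1.3 (adjusted p = 6.01e-06 and 2.51e-07). NCOA1 passed in SKOV-3 cells (0.94, adjusted p = 2.06e-06) and not in PEO-4 cells (0.09, adjusted p = 0.466). NCOR1, a corepressor, was lower than in T1074 cells in both lines (-1.34 in PEO-4 and -1.10 in SKOV-3 cells, adjusted p = 1.29e-07 and 1.29e-06). In PEO-4 cells replicates 1 and 4 both lay above replicates 2 and 3 in 12 of the 18 (66.7%), again beside 26.8% of all genes. They lay below both in 2 (11.1%), beside 28.2%. This list shares NRIP1 and FKBP4 with the estrogen-induced genes and FKBP5 with the glucocorticoid-induced genes. Other lists differed, and the pair lay above in 3 and below in 4 of the 8 luminal factors. The counts were 2 and 1 of the 5 tested genes of corticoid metabolism and sodium transport. For the lists that follow they were 2 and 6 of 12 (estrogen synthesis), 1 and 3 of 5 (membrane progestin receptors) and 1 and 2 of 8 (orphan receptors).

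Of the genes listed for estrogen synthesis and inactivation, 12 of 16 were tested, and CYP19A1, the aromatase, was at 0 but for T1074 replicate 2 at 0.0458 CPM. In PEO-4 against T1074 cells 4 were higher (HSD17B1, HSD17B8, HSD17B12 and CYP11A1) and 4 lower, near the 36.3% and 37.8% over all genes. In SKOV-3 against T1074 cells 6 were higher and 5 lower, against 33.3% and 34.5%, and in PEO-4 against SKOV-3 cells 4 were higher and 4 lower, against 38.5% and 36.7%. HSD17B1, which turns estrone into estradiol, was 8.50, 9.90, 10.6 and 10.4 CPM in PEO-4 cells and 2.63, 3.03, 2.11 and 3.95 CPM in SKOV-3 cells, against 0.109, 0.378, 0.437 and 0.309 CPM in T1074 cells. The 3 lines did not overlap, and HSD17B1 exceeded T1074 cells by 4.89 in PEO-4 and 3.14 in SKOV-3 cells (adjusted p = 2e-09 and 2.55e-07). HSD17B4, which acts in the oxidative direction, was lower in PEO-4 than in T1074 cells (-0.71, adjusted p = 0.00247).

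Membrane progestin receptors bind progestins without PGR. PAQR5, membrane progestin receptor gamma, had 3.29, 5.34, 3.85 and 2.89 CPM in PEO-4 cells and 76.7, 81.8, 84.2 and 85.9 CPM in SKOV-3 cells, against 1.85, 1.92, 3.62 and 2.82 CPM in T1074 cells. SKOV-3 libraries stood far above the others, with log2 fold changes against T1074 cells of 0.57 in PEO-4 and 4.99 in SKOV-3 cells (adjusted p = 0.0281 and 2.64e-10). PGRMC1 and PGRMC2, heme-binding membrane components, were higher in SKOV-3 than in T1074 cells (0.83 and 0.90). PAQR7 was lower than in T1074 cells in both lines (-1.48 in PEO-4 and -1.92 in SKOV-3 cells), and PAQR8 and PGRMC2 were lower in PEO-4 than in T1074 cells (-2.37 and -0.94).

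Orphan receptors related to ESR1 or to steroidogenesis were tested for all 8, with 4 higher (ESRRA, ESRRB, ESRRG and NR2F6) and 3 lower (NR5A1, NR5A2 and NR2F1) in PEO-4 than in T1074 cells, against 36.3% and 37.8% of all genes. In SKOV-3 against T1074 cells 3 were higher (ESRRA, ESRRB and NR2F6) and 5 lower (ESRRG, NR5A1, NR5A2, NR2F1 and NR2F2), against 33.3% and 34.5% of all genes. ESRRA, which shares binding elements with the estrogen receptors, was 71.0, 75.5, 69.0 and 71.9 CPM in PEO-4 cells and 32.0, 35.1, 36.8 and 50.5 CPM in SKOV-3 cells, against 16.1, 15.1, 26.5 and 15.3 CPM in T1074 cells. The 3 lines did not overlap, with log2 fold changes against T1074 cells of 1.97 in PEO-4 and 1.08 in SKOV-3 cells (adjusted p = 2.6e-07 and 0.000114). NR5A1, the steroidogenic factor of gonad and adrenal, was at most 0.0216 CPM in PEO-4 cells and 0.0410 CPM in SKOV-3 cells, against 11.8, 13.6, 14.1 and 12.8 CPM in T1074 cells.

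The genes whose pattern over the 12 libraries was most like each of the 8 tested genes were sought among 15031 protein-coding genes by Pearson's r of log2 CPM, a description in which the 3 lines set most of the spread. ESR1 was closest to SPINT2 (0.998), UGT2B7 (0.997) and NLGN4X (0.997), and GREB1 to ADGRA3 (0.996), RAB39B (0.996) and ZNF556 (0.994). PGR was closest to SCN3B (0.972), CFAP92 (0.972) and ZC3HAV1L (0.969). NR3C1 was closest to CCT3 (0.984), DCAF7 (0.983) and CPNE4 (0.983), and NR3C2 to DENND5B (0.991), RUNX2 (0.991) and ZNF511 (0.991). ESR2 was closest to TCAIM (0.960), FAAP24 (0.959) and STON1 (0.956), and GPER1 to AMDHD1 (0.980), C1orf52 (0.979) and POLI (0.978). FOXA1 had the loosest neighbours, PYGO2 (0.899), YIPF3 (0.890) and B9D2 (0.869).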

How the data were processed

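RNA of 12 libraries was sequenced in read pairs with a directional kit. Per the labels and the study's methods, the authors used bcl2fastq 2.20.0.422, Trimmomatic 0.39, STAR 2.7.3a and RSEM 1.3.1 on hg38 with GENCODE 39. The deposited values used here are expected counts and TPM per transcript, both made by the authors with RSEM. Although protein is entered as the molecule in the labels, the files hold RNA-seq output and were treated so.

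Expected counts were summed by gene (symbols from GENCODE 44) and rounded. All 12 libraries were fitted with edgeR 4.0.16 in R 4.3.3 (TMM factors, filterByExpr by line, quasi-likelihood F-test, Benjamini-Hochberg adjustment, threshold 0.05), after the step was tested on simulated data. CPM used a prior count of 2 only for correlations. A floor of 3 counts per library covers counting error only. Transcript shares were compared by exact permutation tests with scipy 1.17.1. Alternatives included DESeq2 1.42.0, other scalings and filters, a replicate block and leaving out libraries.

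The members and lists were chosen with earlier results of these data known. All 9 genes are named, with the 3 closest genes of each tested one, the first 4 genes of each list and genes behind counts of 5 or fewer in part. Protein sequences were not analysed here. Some list genes counted in the tests are not reported here by name.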

Additional observations from a re-analysis of the deposited data

Results flagged for a closer look

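The highest or lowest library of each of the 9 genes was compared with the other 3 libraries of its line, in 27 groups, by the gap to the nearest library as a share of the range, with Dixon's critical value at the 95% level. Chance marks about 1 in 20 such groups, and 3 were marked. ESR1 in PEO-4 replicate 3 was 252.7 CPM, above the other PEO-4 libraries by 0.922 of the range. TFF1 was 0.0 CPM in PEO-4 replicate 1 and 0.0229 CPM in T1074 replicate 2, and each of these differs from its group by 1 count.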

How the results depend on the processing

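Each fold change of the 8 tested genes was recomputed under 25 alternatives, of which 23 were planned and 2, leaving out PEO-4 replicates 1 and 4 or 2 and 3 together, were added after seeing the data. Of 600 such values, 587 kept direction and call. The direction reversed, with no call either way, for GPER1 in PEO-4 against T1074 cells with library size only (-0.11), without T1074 replicate 4 (-0.20) and without PEO-4 replicates 2 and 3 (-0.025), and for NR3C2 in SKOV-3 against T1074 cells with no filter (0.030) and without T1074 replicate 1 (0.12). Leaving out 1 library at a time gave -0.20 to 0.25 for the GPER1 value and -0.19 to 0.12 for the NR3C2 value. In PEO-4 against T1074 cells ESR2 passed with library size only (-0.68, adjusted p = 0.0342) and without T1074 replicate 3 (-0.63, adjusted p = 0.0342), and FOXA1 with library size only (-0.57, adjusted p = 0.0431) and without T1074 replicate 4 (-0.54, adjusted p = 0.0251). NR3C1 in SKOV-3 against T1074 cells passed with library size only (-0.37, adjusted p = 0.0144) and without T1074 replicate 2 (-0.30, adjusted p = 0.0212). ESR1 (0.53) and ESR2 (0.84) in PEO-4 against SKOV-3 cells were lost where calls also had to reach a log2 fold change of 1 in size. With shares of TPM, 0 of 24 transcript tests passed, against 14 with shares of counts. The causes were not tested.

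With library size only, the median log2 fold change over all genes was -0.17 in PEO-4 against T1074, -0.23 in SKOV-3 against T1074 and 0.09 in PEO-4 against SKOV-3 cells. That minimum size left 9835, 8265 and 10129 genes called in these comparisons, against 14749, 13498 and 14963. Same-numbered libraries of different lines did not deviate together (correlations -0.079 to 0.069), so the numbers do not pair them. With the replicate number as a block 14413, 13094 and 14658 genes were called, and no call of the 8 genes changed. ESR2, GPER1 in SKOV-3 cells, and ESR1 and GREB1 in T1074 cells rest on few counts, which limits their precision.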
